A study of Homo sapiens with 12 samples.

Results

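The CDKN genes encode the inhibitors of cyclin-dependent kinases (CDKs), and their transcripts were followed in U2OS Tet-On cells that carry different forms of the transcription factor E2F1. The members were all rows with the symbols CDKN1A, CDKN1B, CDKN1C, CDKN2A, CDKN2B, CDKN2C, CDKN2D and CDKN3, which were 8 of the 25369 genes listed. Of these, 6 passed the filter on low counts and were tested among 16625 genes, and CDKN2A and CDKN2B did not pass. U2OS is an established human osteosarcoma line. RNA-seq was done on 12 samples, 3 biological replicates of each of 4 stable lines, and each line was given 1 ug/ml doxycycline for 24 hours. The pTRE line carries the empty vector, the WT line carries HA-tagged wild-type E2F1, the R109K line carries E2F1 with lysine in place of the arginine that PRMT1 methylates, and the KK line carries E2F1 with lysines in place of both arginines that PRMT5 methylates. All 4 lines share the Tet-On background, the drug selection with G418 and hygromycin B and the doxycycline. The vectors were added to cells that carry their own E2F1 gene, which was transcribed in pTRE. Whether a line is 1 clone is not given in the sources used here.

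CDKs drive the cell cycle when bound by cyclins, and the inhibitors restrain them. The INK4 proteins, p16 (CDKN2A), p15 (CDKN2B), p18 (CDKN2C) and p19 (CDKN2D), bind CDK4 and CDK6 and keep them from the D-type cyclins, whereas the CIP/KIP proteins, p21 (CDKN1A), p27 (CDKN1B) and p57 (CDKN1C), bind complexes of cyclins and CDKs, those of cyclin E and cyclin A with CDK2 among them. CDKN3 encodes a phosphatase that removes the activating phosphate of CDK2. E2F1 is held by the retinoblastoma protein, which the kinases inactivate, so the inhibitors stand upstream of E2F1.

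The bases before the start sites of the inhibitor genes that were regulated are shown for the members with a RefSeq start site window, because promoter E2F sites are what E2F1 binds. Windows from RefSeq (GRCh38.p14) were found for 7 of the 8 members, 10 windows in all, and each matched GRCh37 exactly once. CDKN1C had no entry. The 250 bases before the start are given for 2 of the 3 CDKN2C start sites and for CDKN1B and CDKN2D, 5′ to 3′ on the strand of the gene, with GRCh37 positions, and capitals mark matches to the E2F cores TTCCCGC and TTGGCGC on either strand:
CDKN2C, start site 1, chr1:51426167-51426416, plus strand: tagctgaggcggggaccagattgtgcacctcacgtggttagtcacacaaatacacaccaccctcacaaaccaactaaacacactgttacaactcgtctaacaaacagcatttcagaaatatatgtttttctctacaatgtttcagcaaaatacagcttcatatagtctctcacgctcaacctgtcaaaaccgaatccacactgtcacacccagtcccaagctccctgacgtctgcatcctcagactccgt
CDKN2C, start site 2, chr1:51434128-51434377, plus strand: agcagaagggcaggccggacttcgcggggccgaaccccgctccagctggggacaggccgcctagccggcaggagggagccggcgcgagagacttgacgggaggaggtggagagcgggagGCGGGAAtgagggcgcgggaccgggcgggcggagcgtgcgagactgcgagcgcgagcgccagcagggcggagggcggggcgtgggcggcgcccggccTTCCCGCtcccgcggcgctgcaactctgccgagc
CDKN1B, chr12:12870052-12870301, plus strand: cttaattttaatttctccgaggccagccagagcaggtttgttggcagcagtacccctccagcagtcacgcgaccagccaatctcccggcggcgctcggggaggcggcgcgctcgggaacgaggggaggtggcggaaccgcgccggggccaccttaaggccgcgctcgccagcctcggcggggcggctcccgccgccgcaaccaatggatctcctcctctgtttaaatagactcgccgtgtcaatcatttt
CDKN2D, chr19:10679656-10679905, minus strand: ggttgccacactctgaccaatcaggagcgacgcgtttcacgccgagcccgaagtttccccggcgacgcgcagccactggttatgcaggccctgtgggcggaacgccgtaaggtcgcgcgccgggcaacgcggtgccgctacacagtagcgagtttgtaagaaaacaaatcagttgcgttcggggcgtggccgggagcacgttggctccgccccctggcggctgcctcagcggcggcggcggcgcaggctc

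In these windows, TTCCCGC occurred in CDKN2C alone, 34 to 28 bases before start site 2 on the strand of the gene and 131 to 125 bases before it on the opposite strand. It was the 1 window of 10 with a core, set against 9.23% of all 35116 windows of the same length. Among the 21631 windows of genes listed in the counts, the share was 11.2%. The cores were chosen after seeing the data. The longer sites TTTCCCGC, TTTGGCGC, TTTCGCGC and TTTGCCGC, searched on both strands and each of the first pair containing a core, were found in 0 of the 10 windows and in 3.31% of all windows. Their share among windows of the genes listed was 3.98%. A match describes the letters and is not a measured binding site, and a window without one says only that these letters are not there.

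Reads on genes ranged from 11500537 in WT replicate 2 to 31040903 in R109K replicate 1. WT replicate 2 stood apart from the other libraries, since 58.73% of its reads had no counted feature, against 23.62% to 29.62% in the other 11. The annotation and strand setting of the counting are not given, so such reads may still lie within genes. WT replicate 2 was the lowest WT sample for 5 of the 6 tested members and lay below every R109K and KK sample for the same 5. The WT fold changes of the members against pTRE are therefore also given without it. Values of WT for other genes, ratios and length-scaled levels include it. Of 8 osteoblast and mesenchymal markers, COL1A2 and BGLAP were near 0, VIM was high in all lines, and the summed level of the list in CPM (read counts scaled to the TMM library size) was 6140 to 7400 for pTRE, 2175 to 2767 for WT, 3298 to 3389 for R109K and 2622 to 3246 for KK. Of the 6 tested, 3 fell in WT, 2 in R109K and 3 in KK, with COL1A1 and SPP1 in each line, beside 3.93%, 2.56% and 3.9% of all tested genes that fell by the same limits (an adjusted p under 0.01 and over 2-fold). Of 5 epithelial markers, KRT8 and KRT18 were abundant, EPCAM and CDH1 low and KRT19 at or near 0, and KRT8 was the 1 that passed both limits, falling in WT. The leukocyte and endothelial markers PTPRC and PECAM1 summed to under 1 CPM in every sample. The part of these marker changes in the results on the inhibitors was not tested.

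The labels of construct against empty vector were checked by E2F1 itself, which was higher in every sample with a construct than in pTRE. Counts per gene do not show which arginines are replaced, so the WT, R109K and KK labels could not be checked in this way. E2F1 (chromosome 20) was at 82.9 to 101 CPM in pTRE, at 2315, 1650 and 1469 CPM in WT replicates 1 to 3, at 1283, 1260 and 932 in R109K and at 1360, 1478 and 1112 in KK. Counts do not separate the induced from the endogenous E2F1. The log2 fold change against pTRE was 4.31 in WT, 3.67 in R109K and 3.85 in KK, and the R109K samples all lay below the WT samples.

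All 6 tested inhibitors were higher in each E2F1 line than in pTRE by fitted log2 fold change, and CDKN2C had the largest fitted change in every line. In WT its lead over CDKN1C was small (1.95 against 1.87) and without WT replicate 3 the order was the opposite (1.91 against 2.035). The call of a regulated gene needed an adjusted p under 0.01 together with a change of more than 2-fold (edgeR's quasi-likelihood test on counts, Benjamini-Hochberg over all 16625 genes). In WT, 3 of 6 members rose by this rule (CDKN1C, CDKN2C and CDKN2D), beside 7.89% of all tested genes in that direction. In R109K, 3 of 6 rose (CDKN1B, CDKN2C and CDKN2D), beside 4.64% of all genes, and in KK, 3 of 6 (CDKN1C, CDKN2C and CDKN2D), beside 7.01%. The samples of 5 members in WT, 6 in R109K and 6 in KK lay wholly above pTRE, as did those of 25.2%, 24.3% and 24.9% of all genes. At an adjusted p under 0.01 with no limit on the fold, 5 members were higher in WT (14.8% of all genes), 5 in R109K (10% of all genes) and 6 in KK (13.8% of all genes). The median log2 fold change of the 6 members was 0.96 in WT, 1.01 in R109K and 1.09 in KK. The median of all tested genes lay within 0.01 of 0 in each line, and TMM scaling itself places most genes near 0. The 3 comparisons share the pTRE samples, so they are not independent of each other. In bulk RNA, fewer cells of a kind and less RNA per cell cannot be told apart.

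**Figure D1:**
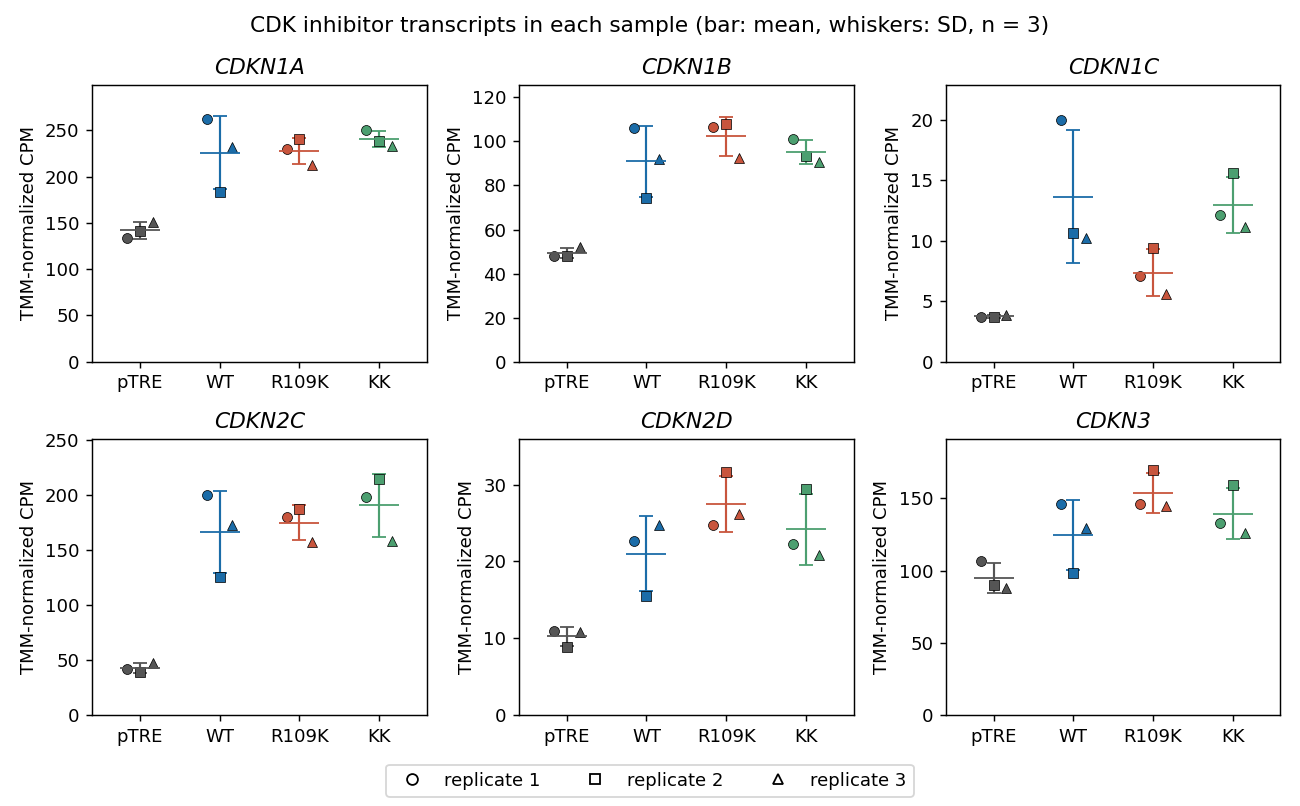
Each panel plots 1 of the 6 tested inhibitors, with the line on the x axis and TMM-normalized CPM from 0 on the y axis. Points are samples (marker shape gives the replicate), the horizontal bar is the mean and the whiskers are the SD (n = 3). CDKN2C lies at 39.5 to 47.9 CPM in pTRE and at 126 to 215 CPM in the other 9 samples, and CDKN3 in WT overlaps pTRE.

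CDKN2C, the gene of p18 on the plus strand of chromosome 1 (51426417 to 51440306, GRCh37 as for all positions here), encodes an inhibitor of CDK4 and CDK6. In pTRE it was measured at 42.3, 39.5 and 47.9 CPM. In WT it stood at 200, 126 and 173 CPM, in R109K at 180, 188 and 157, and in KK at 198, 215 and 159. The lowest E2F1 sample, WT replicate 2, was well above the highest pTRE sample, and the 3 E2F1 lines overlapped each other. The log2 fold change was 1.95 in WT (SE 0.17, adjusted p = 4.89e-07), 2.02 in R109K (SE 0.17, adjusted p = 7.11e-07) and 2.14 in KK (SE 0.17, adjusted p = 1.86e-07), or 3.86-, 4.05- and 4.41-fold. Without WT replicate 2 the WT value was 2.11. The changes in the 3 lines ranked 600, 268 and 391 from the top among the 16625 genes. CDKN2C was also the only member that stayed past the threshold when the change itself was tested against 2-fold.

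CDKN2D, which encodes p19 and lies on the minus strand of chromosome 19 (10677136 to 10679735), was the other INK4 gene with enough reads to test. Its level was 10.99, 8.89 and 10.9 CPM in pTRE. It was 22.7, 15.5 and 24.8 in WT, 24.7, 31.6 and 26.2 in R109K, and 22.2, 29.5 and 20.8 in KK. Every E2F1 sample was above every pTRE sample, and WT replicate 2 was again the lowest of them. Against pTRE it was higher by 1.05 on the log2 scale in WT (SE 0.18, adjusted p = 3.80e-04), 1.42 in R109K (SE 0.18, adjusted p = 4.07e-05) and 1.24 in KK (SE 0.18, adjusted p = 8.94e-05). The WT value was close to the fold limit. It was 0.95 without pTRE replicate 2, 0.98 without WT replicate 1 and 0.90 without WT replicate 3, none of them called, and 1.21 without WT replicate 2.

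The remaining INK4 genes, CDKN2A and CDKN2B, which lie next to each other on chromosome 9, were practically without reads. CDKN2A, the gene of p16 and ARF, had 1 read in pTRE replicate 2, 1 in R109K replicate 3 and 0 in the other 10 samples. CDKN2B, the gene of p15, had 1 read in pTRE replicate 1, 1 in R109K replicate 1 and 0 in the other 10. A count of 0 allows up to 3 reads, which is 0.0972 to 0.241 CPM depending on the sample, so no difference between lines was detectable at this depth. CDKN2B-AS1, the antisense RNA that overlaps both genes, had 0 to 3 reads per sample. MTAP, the next gene on that side and the one often lost with CDKN2A, was at 74.0 CPM in pTRE and did not pass the test in any line (log2 fold changes of -0.10 in WT, -0.02 in R109K and -0.11 in KK).

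Of the CIP/KIP genes, CDKN1C had the largest fitted difference between the E2F1 lines, given with its direct tests further on. It encodes p57, lies on the minus strand of chromosome 11 (2904443 to 2907005) in an imprinted cluster, and had the fewest reads of the tested members, 90 to 561 per sample. In pTRE its level was 3.72, 3.69 and 3.89 CPM, in WT 19.98, 10.7 and 10.2, in R109K 7.10, 9.41 and 5.61, and in KK 12.1, 15.6 and 11.2. No E2F1 sample overlapped pTRE, the R109K samples all lay under the WT and KK samples, and WT replicate 1 stood far above the other WT samples. The log2 fold change against pTRE was 1.87 in WT (SE 0.26, adjusted p = 4.46e-05), 1.78 in KK (SE 0.26, adjusted p = 6.94e-05) and 0.97 in R109K (SE 0.26, adjusted p = 0.0106). In WT it was 1.46 without replicate 1 and 2.00 without replicate 2. The R109K value was just outside both limits of the call, and without R109K replicate 3 it passed them (1.13, adjusted p = 0.00764).

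CDKN1B, which encodes p27 and lies on the plus strand of chromosome 12 (12838432 to 12875303), was higher in all E2F1 lines. It was at 48.1, 48.1 and 52.0 CPM in pTRE, at 106, 74.4 and 92.0 in WT, at 107, 108 and 92.3 in R109K, and at 101, 93.4 and 90.8 in KK. Every E2F1 sample exceeded every pTRE sample. The fitted log2 change was 0.88 in WT (SE 0.13, adjusted p = 7.29e-05), 1.05 in R109K (SE 0.13, adjusted p = 2.58e-05) and 0.94 in KK (SE 0.13, adjusted p = 4.01e-05). These fall to either side of 2-fold and their intervals overlap, so the call in R109K alone does not show a difference between the lines, and without WT replicate 2 the WT value was 1.00 and was called.

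CDKN1A, which encodes p21, lies on the plus strand of chromosome 6 (36644237 to 36655114). It was the member with the most reads per sample, at 133, 142 and 151 CPM in pTRE. It was at 262, 183 and 231 CPM in WT, 229, 241 and 213 in R109K, and 250, 238 and 233 in KK. The E2F1 samples were all higher than the pTRE samples, yet no line reached 2-fold. The log2 fold change was 0.67 in WT (SE 0.13, adjusted p = 7.56e-04), 0.68 in R109K (SE 0.13, adjusted p = 9.58e-04) and 0.76 in KK (SE 0.13, adjusted p = 2.75e-04). The 95% interval of the fold ran from 1.32 to 1.92 in WT, and the WT log2 fold change was 0.80 without WT replicate 2.

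CDKN3, on the plus strand of chromosome 14 (54863567 to 54886936), had the smallest fitted change of the 6 in WT and in KK. In pTRE it was at 107, 90.1 and 88.2 CPM, in WT at 146, 98.1 and 129, in R109K at 146, 170 and 145, and in KK at 133, 159 and 126. WT replicate 2 fell within the pTRE range, and all other E2F1 samples were above it. Its log2 fold change was 0.39 in WT (SE 0.15, adjusted p = 0.0472), 0.69 in R109K (SE 0.15, adjusted p = 0.00265) and 0.55 in KK (SE 0.15, adjusted p = 0.00876). Without WT replicate 2 the WT value was 0.53, with an adjusted p of 0.00515. When any 1 replicate was left out, the adjusted p ran from 0.00494 to 0.0179 in R109K and from 0.0114 to 0.0436 in KK, so the KK value rests on all 6 samples.

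**Figure D2:**
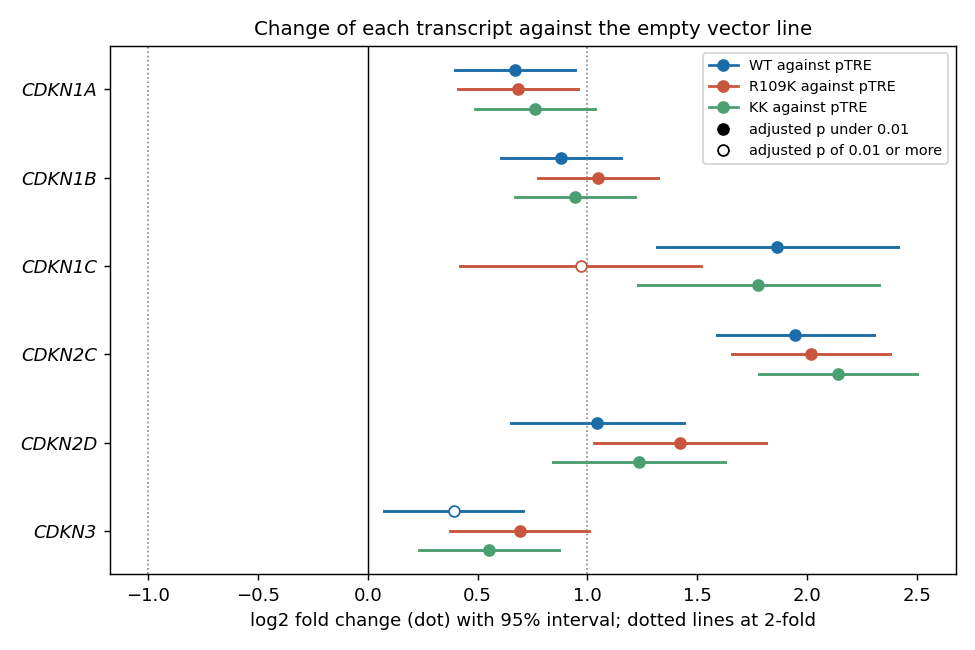
Log2 fold change of the 6 tested inhibitors (rows) in WT, R109K and KK against pTRE, with 95% intervals from the edgeR model as lines and dotted lines at 2-fold. Filled dots have an adjusted p under 0.01. Every estimate is above 0, from 0.39 for CDKN3 in WT to 2.14 for CDKN2C in KK, and the open dots are CDKN3 in WT and CDKN1C in R109K.

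To compare the members within a sample, free of the scaling between libraries, reads on each gene were divided by reads on CDKN1A. CDKN1A was itself higher in each E2F1 line, so a ratio gives the change relative to that rise. A lower CDKN3 ratio in WT therefore stands beside a fitted CDKN3 log2 fold change of 0.39, against 0.67 for CDKN1A. For CDKN2C this ratio was 0.305 ± 0.0225 in pTRE (SD, n = 3), 0.734 ± 0.0413 in WT, 0.768 ± 0.0253 in R109K and 0.792 ± 0.111 in KK. The E2F1 lines did not overlap pTRE (exact permutation test, two-sided, p = 0.1 in each line, the smallest that 3 against 3 allows). The CDKN1C ratio was 0.0266 ± 0.00115 in pTRE, 0.0596 ± 0.0161 in WT, 0.0321 ± 0.00643 in R109K and 0.0539 ± 0.010 in KK. In R109K it overlapped pTRE (exact permutation p = 0.2), and all 3 of its samples, at 0.0263 to 0.0390, were below the lowest of WT (0.0442) and of KK (0.0480). The CDKN1B ratio was 0.349 in pTRE and 0.403, 0.449 and 0.395 in WT, R109K and KK, above pTRE in each of the 9 samples, and the CDKN2D ratio was 0.0725 in pTRE and 0.0927, 0.121 and 0.101 in the same lines. For CDKN3 the ratio was 0.675 ± 0.113 in pTRE and 0.551 ± 0.0139 in WT, without overlap, and 0.674 ± 0.0338 in R109K and 0.580 ± 0.0774 in KK, which overlapped pTRE. No such ratio could reach a p under 0.05 with 3 samples a line.

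**Figure D3:**
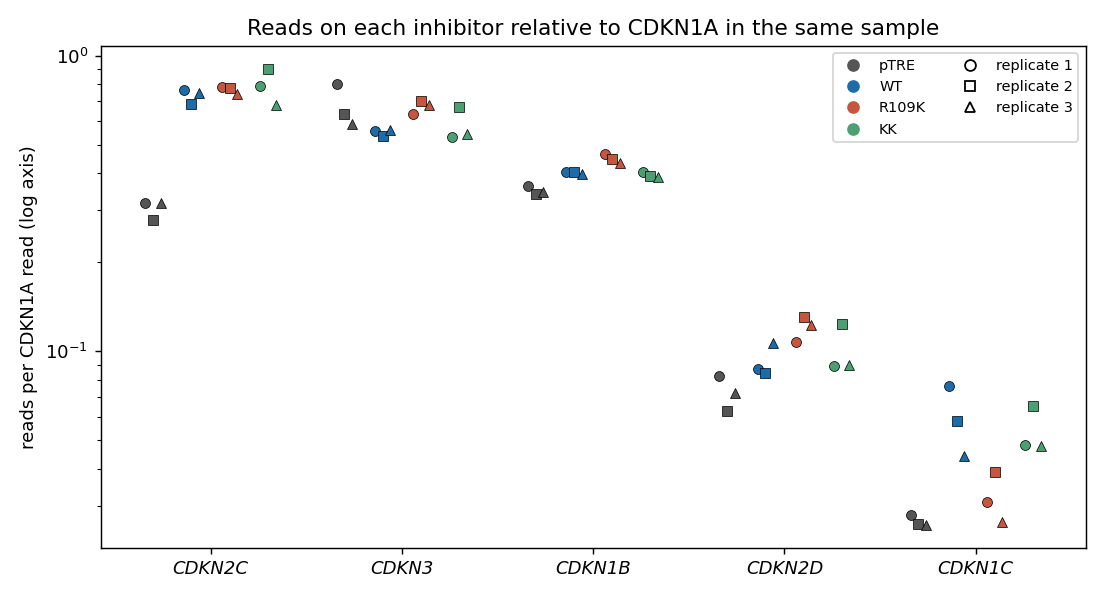
Reads on 5 inhibitors per read on CDKN1A in the same sample, on a log axis, with colour for the line and marker shape for the replicate. CDKN2C lies at 0.279 to 0.318 in pTRE and at 0.682 to 0.903 in the other lines, and CDKN1C in R109K overlaps pTRE and lies below WT and KK.

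The levels of different members were compared per length of the gene, as reads per kilobase of exon (union of the annotated exons) and library size (RPKM, on TMM library sizes). In pTRE the order was CDKN3 (52.0 ± 5.57), CDKN1A (47.3 ± 2.91), CDKN2C (14.3 ± 1.42), CDKN2D (6.81 ± 0.78), CDKN1B (5.34 ± 0.24) and CDKN1C (1.52 ± 0.05; SD, n = 3 each). CDKN3 and CDKN1A overlapped in range, and the other neighbours in the order did not. In KK the order was CDKN1A (80.3 ± 3.01), CDKN3 (76.2 ± 9.64), CDKN2C (63.2 ± 9.58), CDKN2D (16.1 ± 3.08), CDKN1B (10.3 ± 0.58) and CDKN1C (5.23 ± 0.94), where CDKN1A, CDKN3 and CDKN2C overlapped each with the next. In WT, CDKN1A (75.3 ± 13.2), CDKN3 (68.1 ± 13.3) and CDKN2C (55.2 ± 12.5) overlapped in the same way and so did CDKN2D (13.95 ± 3.23), CDKN1B (9.82 ± 1.72) and CDKN1C (5.496 ± 2.22), which came well below them. In R109K, CDKN3 (83.9 ± 7.63) overlapped CDKN1A (76.0 ± 4.71), and CDKN2C (58.0 ± 5.25), CDKN2D (18.3 ± 2.40), CDKN1B (11.1 ± 0.94) and CDKN1C (2.97 ± 0.77) followed without overlap. CDKN1C was the lowest of the 6 in all 4 lines by this measure. The exon union of CDKN1B, 9255 bases, is far longer than its canonical transcript of 2411 bases, and that of CDKN2C is 3018 bases against 995, so the order depends on the length used. By the canonical length CDKN1B came before CDKN2D in every line, and CDKN2C came first in WT (167 RPKM) and in KK (192 RPKM), after CDKN3 in R109K (176 RPKM), and at 43.5 RPKM in pTRE behind CDKN3 and CDKN1A.

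Direct comparisons set the E2F1 lines with and without the methylation sites side by side. Each construct was followed in a single stable line, so loss of the sites cannot be told apart from other differences between the lines. No member was called in R109K against WT, where 0.343% of all genes were called in either direction, in KK against WT, where 0.00602% were called, or in R109K against KK, where 0.0902% were called (edgeR). DESeq2 called 0 members as well. At an unadjusted p under 0.05, 1 member differed in R109K against WT (22.3% of all genes), 0 in KK against WT (8.51%) and 1 in R109K against KK (12.4%), and both were CDKN1C.

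CDKN1C stood at 7.37 ± 1.92 CPM in R109K, 13.6 ± 5.51 in WT and 12.96 ± 2.34 in KK (SD, n = 3 each). R109K against WT gave a log2 fold change of -0.90 (95% interval -1.42 to -0.37, edgeR adjusted p = 0.0565), and R109K against KK gave -0.81 (95% interval -1.33 to -0.29, edgeR adjusted p = 0.133). The R109K samples overlapped neither line, as was so for 27.1% of all genes against WT and 21% against KK. CDKN1C was the 1 member without overlap in each of these, and in KK against WT there was none, beside 9.97% of all genes. Neither difference passed in this model of all 12 samples. R109K and KK samples with the same replicate number deviated together, and with the number as a block in a fit of these 6 samples alone the difference was -0.82 (SE 0.10, edgeR adjusted p = 1.96e-05), which passed the limit on p and stayed under 2-fold. This fit, chosen after seeing the data, called 129 genes in all, against 15 in the model of 12 samples. The adjusted p of CDKN1C was 0.097 in the same 6 samples without the block and 0.117 with the block in all 12 samples. CDKN1C was lower in R109K than in KK in 3 of 3 numbered pairs. Any pairing would give this, since these lines did not overlap, so it adds nothing to the fit with the block. Without WT replicate 1 the difference from WT was -0.50 (adjusted p = 0.187), and without WT replicate 2 it was -1.03 (adjusted p = 0.0385). E2F1 itself was lower in R109K than in WT by 0.65 on the log2 scale (adjusted p = 0.0577) and its part in the CDKN1C difference was not tested. Between R109K and KK the E2F1 difference was -0.18 (adjusted p = 0.773).

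For the other members, the intervals show how large a difference could remain. R109K against WT differed by 0.01 for CDKN1A (95% interval -0.26 to 0.29), 0.17 for CDKN1B (-0.10 to 0.44) and 0.07 for CDKN2C (-0.27 to 0.41), and without WT replicate 2 by -0.12, 0.042 and -0.10. CDKN2D was higher in R109K by 0.38 (-0.0020 to 0.76, adjusted p = 0.226) and CDKN3 by 0.30 (-0.02 to 0.62, adjusted p = 0.243). These last 2 values were 0.21 and 0.15 without WT replicate 2. KK against WT gave differences from -0.09 for CDKN1C to 0.19 for CDKN2C, and no interval reached 2-fold in either direction. Without WT replicate 2 they ran from -0.22 for CDKN1C to 0.030 for CDKN2C.

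**Figure D4:**
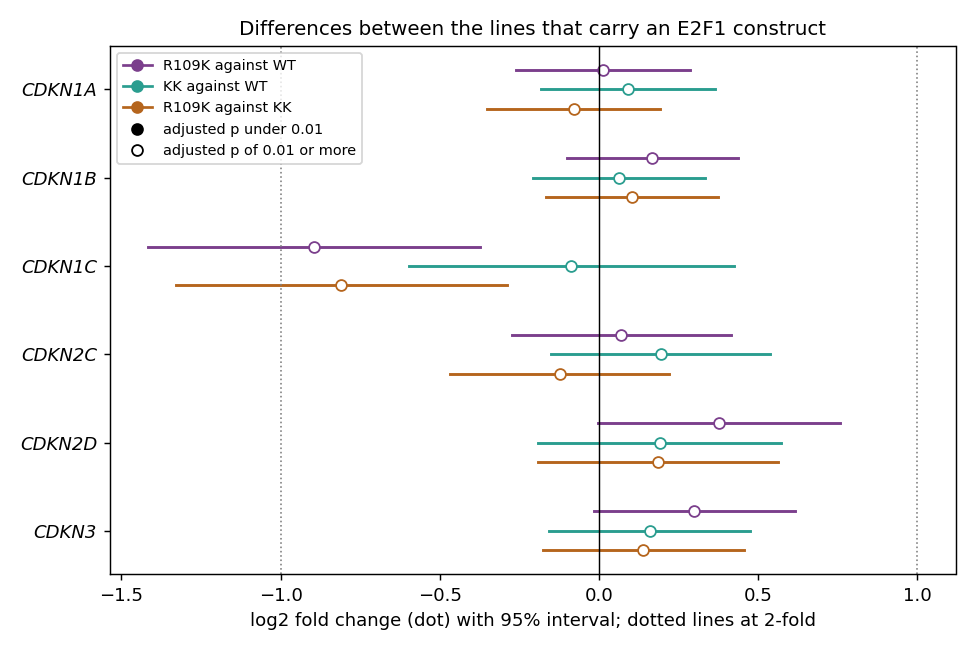
Log2 fold change of the 6 tested inhibitors between the lines with an E2F1 construct, with 95% intervals and dotted lines at 2-fold. All dots are open, since no adjusted p was under 0.01 in the model of all 12 samples. The CDKN1C intervals for R109K against WT and against KK lie below 0, at -1.42 to -0.37 and -1.33 to -0.29, and those of the other members include 0.

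The kinases and cyclins that the inhibitors act on are next in the pathway. Of 13 genes listed, 12 were tested and 3 rose in each line, beside the 7.89%, 4.64% and 7.01% of all genes in WT, R109K and KK, while 0 fell. They were CCNE2, CCND3 and CCNE1, which encode E-type and D-type cyclins, with log2 fold changes in WT of 2.24, 2.08 and 1.59 (SE 0.17, 0.16 and 0.13). In R109K these were 2.06, 1.75 and 1.54, and in KK 2.16, 2.20 and 1.70. CCNA1 was not tested. At an adjusted p under 0.01 alone, 3 higher and 1 lower passed in WT, 5 and 1 in R109K, and 4 and 2 in KK, where over all genes 14.8%, 10% and 13.8% were higher and 11.4%, 7.23% and 10.7% lower.

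The genes of the ubiquitin pathways that degrade p21, p27 and p57 were 12, all of them tested. Of these, 1 rose in each line and 0 fell, beside the same shares of all genes (7.89%, 4.64% and 7.01%). It was SKP2, the F-box protein that targets p27, at 1.07 in WT, 1.25 in R109K and 1.19 in KK (adjusted p = 6.62e-06, 2.89e-06 and 2.50e-06). At an adjusted p under 0.01 alone, 2 were higher and 2 lower in WT, 2 and 1 in R109K, and 2 and 2 in KK, beside the shares of all genes given for the kinases and cyclins. Of the 22 transcription regulators known to act on CDKN genes, 20 were tested, and 4 rose in WT, 3 in R109K and 3 in KK, again beside 7.89%, 4.64% and 7.01%. The 3 largest rises in WT were TP73 at 2.505, FOXO1 at 2.15 and CBX7, a Polycomb protein that represses CDKN2A, at 1.28. In R109K they were at 2.34, 1.16 and 1.30, and in KK at 2.53, 1.73 and 1.24. Of the 11 pocket proteins and activating enzymes, 0 were called in WT, R109K or KK, beside 11.8%, 7.19% and 10.9% of all genes in either direction. At an adjusted p under 0.01 alone, 4, 2 and 3 of the 11 were higher, beside 14.8%, 10% and 13.8% of all genes. The direct comparisons called 0 genes of any of the 4 lists, beside the small shares of all genes given with those comparisons above.

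The genes next to the inhibitors were read beside them. FAF1, which starts 477 bases from CDKN2C on the opposite strand, was 0.96, 0.93 and 1.01 higher on the log2 scale in WT, R109K and KK (adjusted p = 4.28e-06, 9.62e-06 and 2.57e-06), against 1.95, 2.02 and 2.14 for CDKN2C. The first of the sequences above lies in that gap. GPR19 overlaps CDKN1B on the opposite strand and was 0.81, 1.11 and 0.94 higher (adjusted p = 4.47e-04, 4.40e-05 and 1.29e-04). APOLD1, on the other side of CDKN1B, was 0.88, 0.94 and 0.96 higher. The strand setting of the counting is not given in the sources used here, so reads of CDKN1B and GPR19 may not be fully apart where the genes overlap. GPR19 ends at 12849141, before the CDKN1B start site window shown above, so the overlap is with the upstream part of the annotated CDKN1B gene.

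Beside CDKN2D, KRI1 was 0.14, 0.28 and 0.19 higher, with no adjusted p under 0.01, and AP1M2 was at -0.95, -0.31 and -0.84, with adjusted p = 0.00147, 0.268 and 0.00343. Beside CDKN3, CNIH1 differed by 0.13, 0.05 and 0.03 and did not pass, and BMP4, the next gene on the other side at 438087 bases, was at -1.27, -0.59 and -1.29 (adjusted p = 8.11e-05, 0.0251 and 7.27e-05). In the imprinted cluster of CDKN1C, KCNQ1OT1 (0.38, -0.15 and -0.11) and PHLDA2 (0.11, -0.06 and 0.55) did not pass in any line. CREBL2, beyond GPR19, was at -0.42, -0.10 and -0.32 with no adjusted p under 0.01, and DMRTA1, beyond CDKN2B, did not pass either. PANDAR and RAB44 beside CDKN1A, KCNQ1DN and SLC22A18AS beside CDKN1C, and C1orf185 beyond CDKN2C had too few reads to test.

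**Figure D5:**
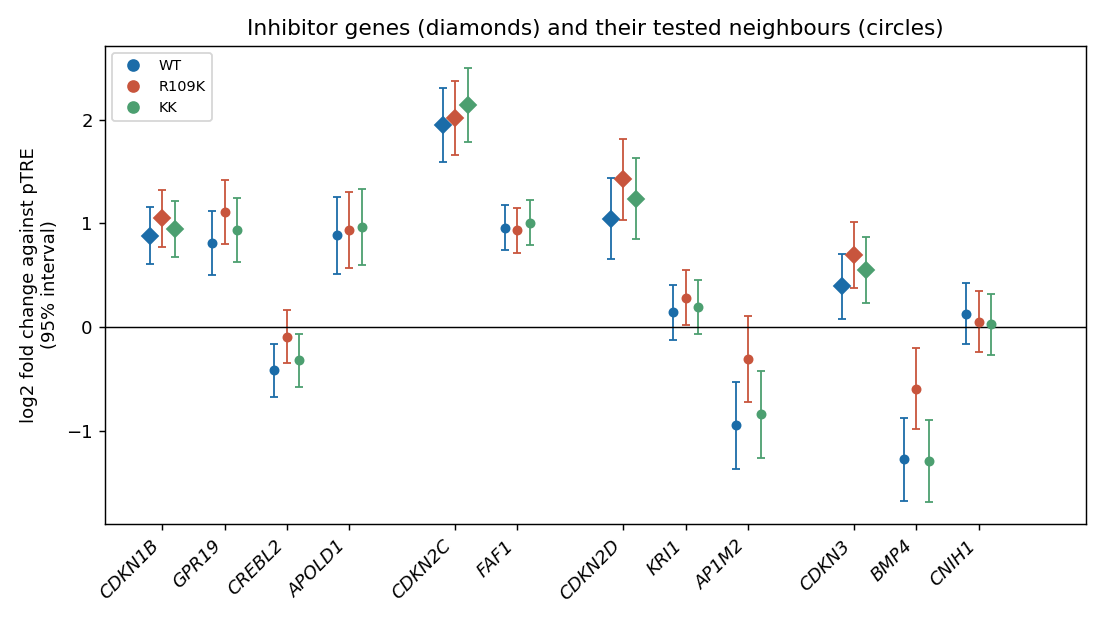
Log2 fold change against pTRE of 4 inhibitor genes (diamonds) and of their tested neighbours in the annotation (circles), with 95% intervals and colour for the line. FAF1 beside CDKN2C and GPR19 and APOLD1 beside CDKN1B are above 0 in all lines, and KRI1 and CNIH1 are near 0.

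The genes whose pattern over the 12 samples was most like that of a regulated inhibitor were found by Pearson r of log2 CPM among 13304 genes, which had on average 50 or more reads. For CDKN2C they were OLFM1 (r = 0.994) and SLBP, the histone mRNA binding protein (r = 0.992). For CDKN1C they were TPRN (r = 0.990) and ZFAND2A (r = 0.988), and TPRN was at 13.3 CPM in pTRE, 35.8 in WT, 21.2 in R109K and 35.7 in KK, in the same order of pTRE and R109K below the other lines. For CDKN1B they were ZWINT (r = 0.991) and KIF2C (r = 0.986), both of the mitotic kinetochore, and for CDKN2D they were ASRGL1 (r = 0.990) and TMEM106C (r = 0.981). The 12 points share their lines and libraries, so r describes a likeness in these samples and nothing more.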

How the data were processed

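RNA-seq of 12 samples of U2OS Tet-On lines was analysed, 3 replicates in each of 4 lines by their labels. The authors deposited counts, whole numbers of reads per gene symbol (25369 genes) with 5 summary lines for reads not counted. Per the labels' processing notes, Trim Galore 0.4.3, STAR 2.5.1, hg19 and DESeq2 1.16.1 were used. The annotation version and the strand setting of the counting are not given in the sources used here.

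Summary lines were left out, and edgeR 4.0.16 (R 4.3.3) was run with filterByExpr, TMM and 1 quasi-likelihood model of all 12 samples. Calls needed a Benjamini-Hochberg adjusted p under 0.01 and over 2-fold, the thresholds of the study's methods. CPM use TMM library sizes, and log2 CPM a prior count of 2. Intervals are at 95%, and a count of 0 was taken to allow 3 reads, which covers counting error only. The common dispersion was 0.0239. Reads of CDKN2A and CDKN2B were too few to test. The scripts were tested on simulated data.

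Genes named are the 8 members, E2F1, at most 3 largest rises and falls called in WT against pTRE from 4 pathway lists, annotation neighbours, and the 2 genes most like each regulated member. The result of 1 gene of these lists is not reported here. The members and lists were chosen with earlier results of these data known. Positions come from GENCODE 44 on GRCh37, where 21538 of the symbols matched. Promoter windows hold 250 bases before and 50 after a RefSeq start.

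Alternatives were DESeq2 1.42.0, RLE, no filter, a minimum of 10 counts in every sample, the replicate block, the 6 samples of a comparison alone, glmTreat, other thresholds, each replicate left out, and other gene lengths. Replicate numbers were checked by the correlation of deviations from line means. R109K and KK samples of the same number correlated at 0.294 to 0.470 in 3 of 3 pairs and those of different numbers at -0.342 to 0.0369, whereas no other comparison had all 3 pairs over 0.1. What the numbers mark is not given in the labels. The block on these 6 samples, the canonical transcript length and the 7-base E2F cores were chosen after seeing the data.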

Additional observations from a re-analysis of the deposited data

How the results depend on the processing

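All 270 log2 fold changes of members against pTRE under the alternatives were positive. Of these, 252 kept their side of the call, 9 lost it and 9 gained it. The other thresholds and glmTreat used the fit of the main model, so the signs could not change there. DESeq2, RLE, both filters and the 6 samples of a comparison alone left 3 members called in each line against pTRE and 0 in the direct comparisons. Testing the change against 2-fold with glmTreat called 1 member in each line (CDKN2C), and dropping the fold limit called 5 in WT, 5 in R109K and 6 in KK. Leaving out each replicate in turn gave 2 to 4 members in WT, 3 to 4 in R109K, 3 in KK and 0 in each direct comparison.

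Several small differences between lines changed sign when 1 replicate was left out. Without WT replicate 2, R109K against WT was -0.12 for CDKN1A and -0.10 for CDKN2C, and KK against WT was -0.036 for CDKN1A and -0.060 for CDKN1B. CDKN1A in R109K against WT was -0.027 without R109K replicate 2, and CDKN1C in KK against WT was 0.32 without WT replicate 1 and 0.016 without KK replicate 3. Over all left-out replicates, R109K against WT ran from -0.12 to 0.14 for CDKN1A and -0.10 to 0.23 for CDKN2C, and KK against WT from -0.04 to 0.22 for CDKN1A, -0.06 to 0.20 for CDKN1B and -0.26 to 0.32 for CDKN1C. The adjusted p of CDKN1C in R109K against WT ran from 0.0208 to 0.202 over the left-out replicates and was 0.0146 by DESeq2.

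Outside R109K against KK, no comparison had all 3 pairs of the same replicate number correlated over 0.1. In WT against pTRE, 2 of 3 such pairs were over 0.1 (up to 0.241), and 0 of 6 pairs of different numbers were. With the replicate block on all 12 samples the count was 3 members in each line against pTRE and 0 in the direct comparisons, and 6 of 12 samples correlated best with their own number. With the replicate block on the 6 samples of R109K and KK alone, 0 members and 129 genes were called against 15 without it, and the adjusted p of the other 5 members was 0.0962 to 0.373.

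Length-scaled levels in pTRE moved with the length, by construction. With the longest transcript CDKN1A was at 62.5 RPKM, CDKN1B at 11.4, CDKN1C at 1.95 and CDKN3 at 88.8. With the canonical transcript CDKN1A was at 67.0, CDKN1B at 20.5, CDKN1C at 2.12, CDKN2C at 43.5 and CDKN3 at 113.

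Counts over all genes moved by more than 1.5 times from 1964 in WT, 1196 in R109K and 1814 in KK to 592, 311 and 567 with glmTreat and to 4362, 2868 and 4059 with no fold limit. In R109K against WT, 57 genes became 132 with DESeq2, 99 with no filter, 0 with 6 samples, 1 with glmTreat, 118 with no fold limit, 150 at an adjusted p under 0.05, and 3 to 157 with a replicate left out. In KK against WT, 1 gene became 5, 4, 0, 0 and 2 under the first alternatives of that list, 0 with the replicate block, and 0 to 2 with a replicate left out. In R109K against KK, 15 genes became 68 with DESeq2, 32 with no filter, 8 with at least 10 counts, 3 with 6 samples, 0 with glmTreat, 60 at an adjusted p under 0.05, and 1 to 11 with a replicate left out.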
